A study of Oryza sativa with 2 samples.

Results

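Laccases are blue multicopper oxidases that plants secrete into the cell wall. Together with class III peroxidases they oxidise monolignols, the building blocks of lignin, to radicals that couple into the polymer, so they act at the last step of lignification in thickened secondary walls. In rice, a laccase gene targeted by the microRNA miR397 is also known to affect the response to brassinosteroid. The laccase genes were described here for their place in a map of the binding of OsbHLH002, a basic helix-loop-helix transcription factor whose study names secondary cell wall formation in its title. They were taken as every gene in the deposited list of peaks whose description contains the word laccase, which gave 6 genes of 14709. A laccase gene outside that list was not analysed here.

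The samples were 1 chromatin immunoprecipitation (IP) library and 1 input library. Both came from transgenic rice plants labelled Osbhlh002-1 gOsbHLH002-3FLAG, that is, the Osbhlh002-1 mutant background with a genomic OsbHLH002 copy that carries a FLAG tag, and the IP was made with an antibody against FLAG. Neither the tissue nor the age of the plants is stated in the sources used here, and the samples hold no IP from plants without the tag. The list placed 12487 peaks of the IP on genes, each gene taking a peak that overlapped the 2000 bp before or after its start (its window). As a single IP was made, no value below carries an error between plants, and no test was made between groups.

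The 6 laccase genes carried peaks of low to middling strength. Their fold enrichment was the value deposited by the authors, read here as the ratio of the IP to the local background at the summit. It ran from 2.39 to 3.32 with a median of 2.71, against a median of 3.13 (quartiles 2.57 and 4.11) over all 14709 genes. A single laccase gene of the 6 was above the median of all genes, a position held by 49.0% of the list. All 6 passed a q of 0.05 or less, as did 90.1% of all genes, and 5 of 6 passed a q of 0.01 or less, as did 77.3%. The laccase genes therefore passed these thresholds about as often as the list at large.

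**Figure D1:**
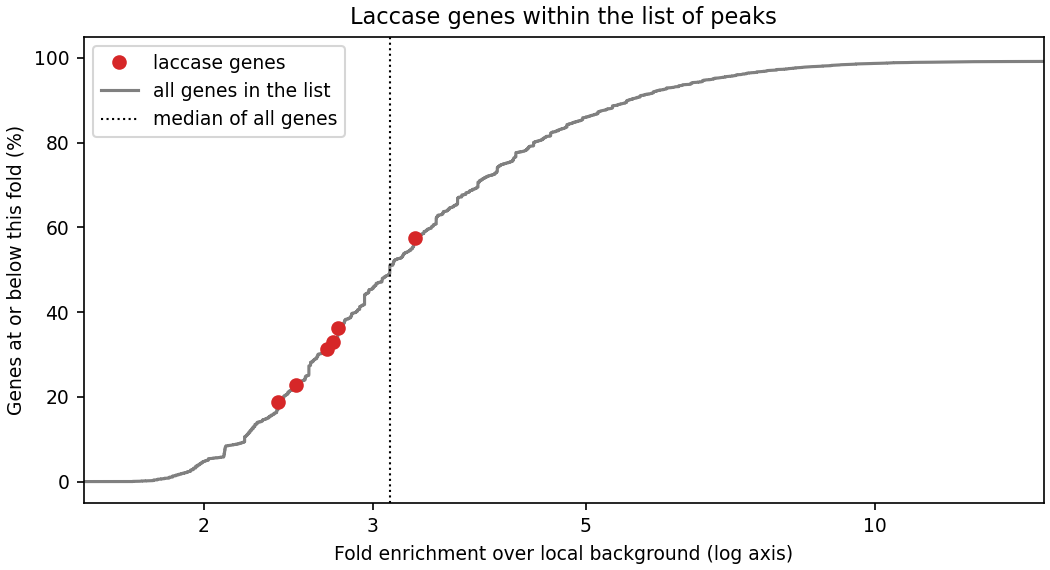
Share of genes in the list (%) at or below each fold enrichment (log axis, drawn up to 15). Red points are the 6 laccase genes, the grey line all 14709 genes and the dotted line their median of 3.13; 5 of the 6 points lie left of that line.

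The listed summits at the laccase genes lay away from the gene start. Of the 6, 0 had a summit within 250 bp of the start, where 35.8% of all genes had theirs, and 1 of 6 was within 500 bp, against 48.4% of all genes. The median distance was 1050 bp, against 549 bp over all genes. The laccase genes were split evenly by side, with 3 of 6 summits upstream of the start (63.2% of all genes) and the other 3 inside the gene (27.1% of all genes).

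**Figure D2:**
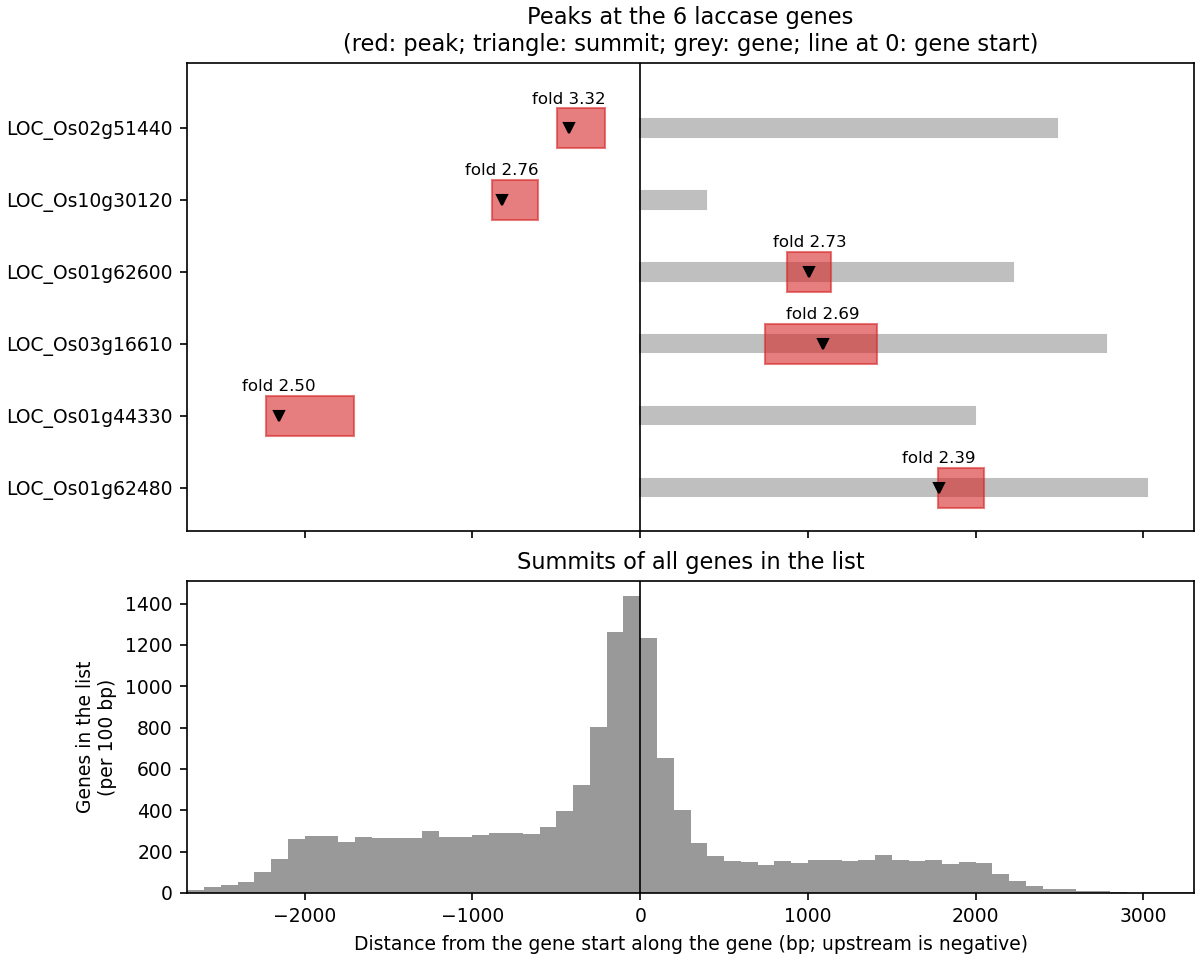
Top, the 6 laccase genes aligned at their start (x axis, bp along the gene, upstream negative), ordered from highest to lowest fold; grey bars are genes, red boxes peaks and triangles summits. Bottom, number of summits of all genes in the list in equal bins along the same axis; the laccase summits lie from 2156 bp upstream to 1781 bp downstream, outside the crowded bins at the start.

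LOC_Os02g51440 had the strongest laccase peak and the one nearest to a gene start. The gene, described as a laccase precursor, is a minus-strand gene at 31515301 to 31517784 of chromosome 2. The called region was 287 bp long, from 31517994 to 31518280. The whole peak lay upstream, with its near edge 210 bp and its summit 426 bp from the start. The deposited fold was 3.32, with a −log10 q of 4.08. Solved from the deposited fold and p, the summit held 18 IP fragments over a local background of 4.72. All fragments and backgrounds given here were solved in this way, with the fold taken as (fragments + 1) / (background + 1). By fold LOC_Os02g51440 ranked 6240 of 14709 genes, above 57.3% of them. Its peak was narrow, with 17.0% of genes having a narrower one.

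LOC_Os10g30120, described as a laccase-9 precursor, had its peak wholly within the 2000 bp upstream of its start, as did LOC_Os02g51440. It is a plus-strand gene at 15648466 to 15648856 of chromosome 10. The gene model is only 391 bp long, where those of the other 5 laccase genes run from 1998 to 3020 bp, and it is the member whose description lacks the word expressed. In the list as a whole 4.33% of genes were shorter. The called region was 278 bp long, from 15647580 to 15647857, with its summit 825 bp upstream. There were 14 IP fragments over a background of 4.44, for a 2.76-fold enrichment with a −log10 q of 2.29. This was the lowest level of background solved in the list, held by 3257 peaks, and was read here as the genome-wide background. The same fold and p were shared by 306 peaks in the list, since the genome-wide background and a small whole number of fragments allow few values.

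The peaks of 3 laccase genes lay wholly inside the gene, and their summits fell at 39.3% to 59.0% of its length, away from both ends. The files do not say which exons or introns these are. LOC_Os01g62600, a plus-strand gene at 36236842 to 36239066 of chromosome 1, had a peak from 36237719 to 36237977 with its summit 1009 bp downstream of the start. It had 15 IP fragments over a background of 4.87, at a 2.73-fold enrichment with a −log10 q of 2.38. At 259 bp its peak was the narrowest of the 6.

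LOC_Os03g16610 is a minus-strand gene at 9167558 to 9170334 of chromosome 3, with a peak from 9168923 to 9169590 and a summit 1091 bp downstream of the start. It had the most IP fragments of the 6, 20, but also the highest background, 6.82, and its fold was 2.69. Its −log10 q of 3.01 was second among the laccase genes. Its peak was the widest of the 6, 668 bp, wider than in 74.0% of genes.

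LOC_Os01g62480 had the weakest laccase peak. This minus-strand gene at 36165920 to 36168939 of chromosome 1 ends 67903 bp before LOC_Os01g62600, and its called region spanned 36166888 to 36167166. The summit lay 1781 bp downstream of the start and 1238 bp from the 3′ end of the gene, close to the edge of the peak, at 97.1% of its 279 bp. The summit held 12 IP fragments over the genome-wide background of 4.44, with a fold of 2.39, higher than in 17.0% of genes. The −log10 q was 1.40, a q of 0.0397, so this was the laccase peak that passed 0.05 and not 0.01. Fewer fragments were found at 2.66% of genes, and 235 peaks had the same fold and p.

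LOC_Os01g44330 entered the list through a peak that lay in another gene. It is a minus-strand gene at 25439082 to 25441079 of chromosome 1. The peak, from 25442783 to 25443309 (527 bp), reached 297 bp into its window, and the summit was 2156 bp upstream of its start, farther than the window itself, as for 7.6% of all genes. The same peak was entered for LOC_Os01g44340, a pectinesterase gene from 25442405 to 25444195 on the same strand, whose product trims methyl groups from wall pectin. There the peak lay inside the gene with its summit 960 bp downstream of the start. The summit held 18 IP fragments over a background of 6.61, for a 2.50-fold enrichment with a −log10 q of 2.29. No other laccase gene shared its peak, against 29.6% of all genes that did so.

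The counts behind the 6 folds overlapped within counting error. The exact 95% Poisson intervals of the IP fragments were 10.7 to 28.4 for LOC_Os02g51440 at the top of the order by fold and 6.20 to 21.0 for LOC_Os01g62480 at its end, and all 6 intervals shared the range from 12.2 to 21.0 fragments. With the background held as it was, these counts allow a fold from 2.04 to 5.15 for LOC_Os02g51440 and from 1.32 to 4.04 for LOC_Os01g62480. The median fold of all genes, 3.13, lay inside the interval of each of the 6. The lower bound of the IP fragments stayed above the local background at all 6 genes, a condition close to the one by which peaks are called. These intervals cover counting error only.

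**Figure D3:**
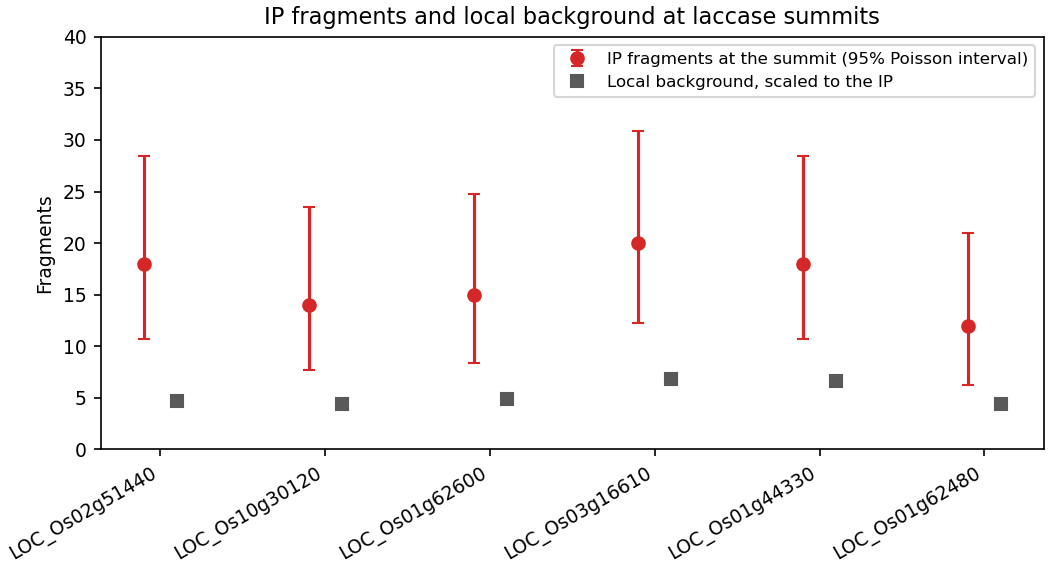
IP fragments at the summit of each laccase gene (red points, bars are exact 95% Poisson intervals) and the local background at the scale of the IP (grey squares), ordered by fold. The counts lie between 12 and 20 and the backgrounds between 4.44 and 6.82; the red intervals overlap one another and none reaches its grey square.

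The laccase peaks rested on few fragments. The median laccase summit held 16.5 IP fragments, against 20 over all genes. Of the 6, 5 had fewer than 20, as did 49.2% of all genes. The local background had a median of 4.79 fragments against 5.19, and 2 of 6 laccase genes, against 25.7% of all genes, stood on the genome-wide background. The median width was 283 bp against 450 bp (quartiles over all genes 318 and 680 bp), and 4 of 6 laccase peaks were narrower than the median width, against 49.9% of all genes.

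The median fold of the list differed by the place of the summit. Over all genes with a summit inside the gene and farther than 250 bp from the start (1862 genes), the median fold was 2.75, and for the 3 laccase genes of that kind it was 2.69. Over genes with a summit farther than 250 bp upstream (6149 genes) the median fold was 3.31, and for the 3 upstream laccase genes it was 2.76. Set against genes with a summit in the same kind of place, LOC_Os02g51440 was at the median for upstream summits. LOC_Os10g30120 (2.76) and LOC_Os01g44330 (2.50) were below it. The summit of LOC_Os01g44330 also lay inside the gene LOC_Os01g44340, and its fold was below the median of 2.75 for summits inside a gene as well. In the gene body LOC_Os01g62600 (2.73) and LOC_Os03g16610 (2.69) were close to the median of their kind and LOC_Os01g62480 (2.39) was below it.

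No other listed peak overlapped the window of any of the 6 genes, so no stronger listed peak in these windows was entered for a neighbour. Called peaks with no entry, and peaks outside the windows, are not covered by this check. Peak numbers rise along the chromosome, and numbers with no entry show where called peaks were not analysed here. At LOC_Os03g16610, 4 such numbers fell between 9156719 and 9168923, a stretch that takes in the 3′ part of the gene. Another 1 fell between 9169590 and 9199912, a stretch that takes in the start of the gene. At LOC_Os01g62600 there was 1 between 36230431 and 36237719, which takes in its start, and 2 between 36237977 and 36261336. At LOC_Os01g62480 there was 1 to either side of its peak, and at LOC_Os02g51440 1 between 31494855 and 31517994. The start of LOC_Os01g62480 also lay in such a stretch, as did the whole of LOC_Os02g51440. The rule that enters a peak for a gene is not stated. A called but unlisted peak nearer to the starts of these genes therefore cannot be seen here. The peaks of LOC_Os10g30120 and LOC_Os01g44330 had 0 missing numbers to either side.

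The nearest listed genes around the laccase genes had peaks with folds from 2.15 to 10.2. ZOS1-16 (LOC_Os01g62460), a C2H2 zinc finger gene that ends 4384 bp before LOC_Os01g62480, had a fold of 10.2 from 61 IP fragments, with the summit 154 bp upstream of its start. On the other side of LOC_Os01g62480, OsFtsH3 (LOC_Os01g62500), a gene for an FtsH protease, had a fold of 2.76. LOC_Os01g62600 lay between LOC_Os01g62584, an aspartic peptidase gene with a fold of 2.18 and a q of 0.0685, and LOC_Os01g62620, a DHHC zinc finger gene with a fold of 4.04. Around LOC_Os10g30120, the xylosyltransferase gene LOC_Os10g30080 had a fold of 2.55 and the starch synthase gene LOC_Os10g30156 a fold of 3.42. The gene before LOC_Os01g44330, LOC_Os01g44310 (a dnaJ domain gene), had a fold of 3.02. At LOC_Os03g16610, the neighbours LOC_Os03g16600 (an expressed protein) and LOC_Os03g16670 (a haloacid dehalogenase-like hydrolase gene) had folds of 2.51 and 5.52. At LOC_Os02g51440, LOC_Os02g51414 (an expressed protein) had a fold of 2.58 and LOC_Os02g51470, a gene for the delta subunit of ATP synthase, a fold of 2.15 with a q of 0.0807.

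Genes of the wider blue copper oxidase family also had peaks of low to middling fold, most of them close to the gene start. The list held 6 genes described as monocopper or ascorbate oxidases, which share the copper fold of laccases, and their median fold was 2.48. Of these, 4 of 6 passed a q of 0.05 or less, against 90.1% of all genes, and 4 of 6 had a summit within 250 bp of the start, against 35.8% of all genes and 0 of 6 laccase genes. The difference between these families was not tested. LOC_Os01g60080 led with a fold of 3.51, its summit being 175 bp upstream, followed by LOC_Os06g46500 (3.13, 149 bp upstream), LOC_Os01g01030 (2.72, 1495 bp upstream) and LOC_Os10g36390 (2.24, 289 bp upstream), all described as monocopper oxidases.

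Class III peroxidases, the other enzymes that oxidise monolignols in the wall, spanned a broader range. Their 42 genes had a median fold of 2.98, with 38 of 42 at a q of 0.05 or less (90.1% of all genes) and 18 of 42 above the median of all genes (49.0% of all genes), both near the shares of the whole list. The highest were LOC_Os01g57730, with a fold of 9.54 from 55 IP fragments and a summit 85 bp upstream, and LOC_Os01g22249, with 8.09 and a summit 379 bp upstream. No laccase gene reached the fold of either. Of the peroxidase genes, 6 of 42 had a summit within 250 bp of the start, where 35.8% of all genes had theirs.

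Upstream in the pathway, 11 of 16 monolignol genes had a peak in the list, a count with no share of all rice genes to set it against here. All 11 were at a q of 0.05 or less, as were 90.1% of all genes in the list, and their folds had a median of 3.49. Of the 11, 6 were above the median of all genes, against 49.0% of all genes. LOC_Os02g41650, a gene of phenylalanine ammonia-lyase, the enzyme that opens the phenylpropanoid pathway, had a fold of 6.78, and LOC_Os06g44620, an AMP-binding domain gene by its deposited description and a 4-coumarate:CoA ligase in the list from general knowledge, had 5.82. Both were above the strongest laccase gene. The 6 dirigent genes, whose proteins guide the coupling of monolignol radicals, had a median fold of 2.83 and 5 of 6 passed a q of 0.05 or less, against 90.1% of all genes. LOC_Os11g27620 (4.05) and LOC_Os07g01660 (3.04) were the highest of them. The 43 genes with copper, plastocyanin or plantacyanin in their description, 5 of them monocopper oxidases already counted, had a median fold of 2.90, with 38 of 43 at a q of 0.05 or less, against 90.1% of all genes. LOC_Os04g57750, a plastocyanin-like gene, had 6.31 and the copper/zinc superoxide dismutase gene LOC_Os03g22810 had 4.78. These medians were not tested against each other.

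**Figure D4:**
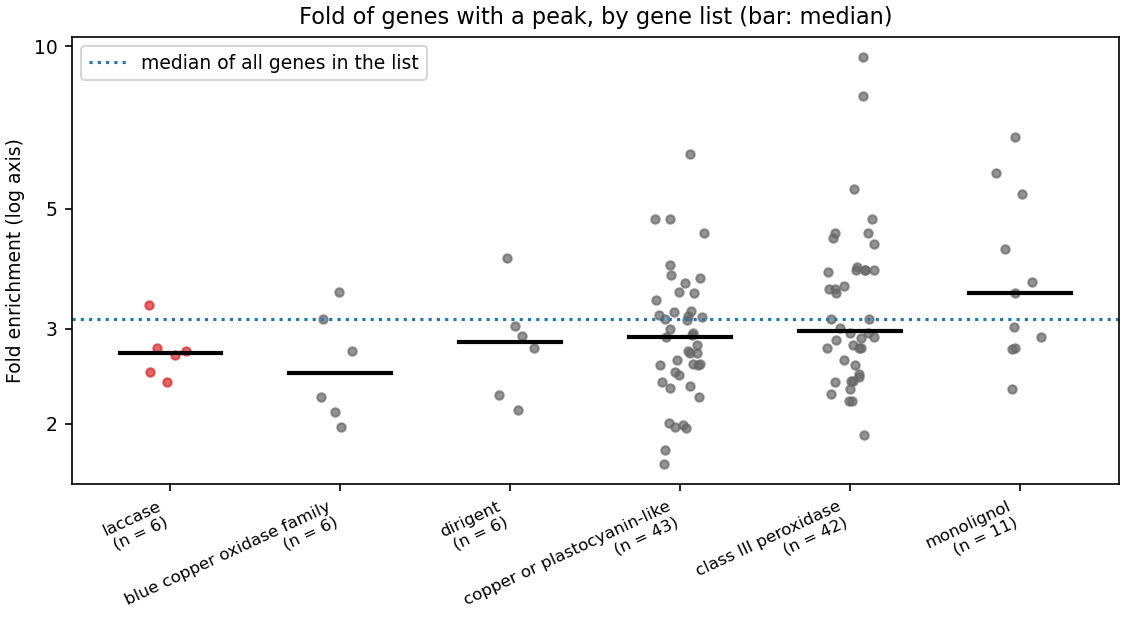
Fold enrichment (log axis) of each gene with a peak in the laccase list and 5 related lists; bars are medians and the dotted line is the median of all genes, 3.13. The laccase genes span 2.39 to 3.32, while the peroxidase and monolignol lists reach 9.54 and 6.78.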

How the data were processed

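The laccase genes and the gene lists were chosen with earlier results of these data known. The authors deposited the peaks of 1 IP library, joined to gene models. The submitters' processing notes name MACS2 (2.2.7.1) beside Bowtie2 (2.4.2), Picard and SAMtools. Genome build, annotation release, calling threshold and library totals are not stated in the sources used here. The deposited headers name a fold of enrichment and log10 p and q values. The fold was read here as a ratio over local background, and the p and q values as −log10. In 14706 of 14709 entries the deposited score equalled 10 times the −log10 p, cut to a whole number. Coordinates are as deposited, with peak starts counted from 1.

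IP fragments and background were solved from the deposited fold, taken as (fragments + 1) / (background + 1), and the Poisson p, within 0.0001 times the −log10 p plus 0.0002. A single whole-number solution existed for 12485 of 12487 peaks, all 6 laccase peaks included, and the method was tested on simulated data. SciPy 1.17.1 gave the exact Poisson intervals. The genome-wide background was taken as the lowest level of background among the solved peaks. Distances run from summit to gene start. Named genes were all laccase genes, genes on the same peak, the nearest listed gene to either side, up to 4 blue copper oxidase genes and up to 2 of each other list by fold. Monolignol identifiers came from general knowledge, the other lists from words in the descriptions. Alternatives were other q limits, ranks by other measures, other distances and leaving out single genes. Of the 6 identifiers, 0 were among 39387 entries of the RefSeq gene table, so no sequence is shown.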

Additional observations from a re-analysis of the deposited data

How the results depend on the processing

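The median fold of 2.71 ranged from 2.69 to 2.73 over 6 alternatives. Of these, 3 could not change it: peaks at a q of 0.05 or less, summits upstream or in the gene, and the strongest listed peak in the window. All 6 genes met the first 2 limits, and no window held another listed peak. The other 3 each left out 1 gene. They were peaks at a q of 0.01 or less, which drops LOC_Os01g62480, and the list without LOC_Os01g44330, which shares its peak, or LOC_Os10g30120, not described as expressed. The median laccase gene exceeded 32.0% of genes by fold; this was 32.1% among peaks, 32.2% without transposon genes, 27.9% by IP fragments, 29.8% by −log10 q and 31.0% among genes with a summit farther than 250 bp from the start. The number of laccase genes near their start was 0 within 250 bp and 1 within 500 bp, and 0 within 250 bp of any listed start. Of 3 upstream summits, 2 were left without LOC_Os01g44330. The q of 0.01 or less and the alternatives that leave out a gene or keep far summits were added after the data were seen. No paired analysis was possible because there was 1 IP library. Each summit rested on 12 to 20 fragments and the 6 counting intervals overlapped; differences in fold among the 6 genes were not tested.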
